A study of Homo sapiens with 4 samples.

Results

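The subject here is a group of 41 human genes of the p53 response and of apoptosis, chosen by symbol from a list of known roles: 19 targets of p53 with roles in cell cycle arrest, stress responses or DNA repair, 12 members of the BCL2 family, and 10 death receptor, caspase and inhibitor-of-apoptosis genes. A probe set with a single gene symbol was found for 39 of the 41, out of 18377 genes named on the array, and BTG2 and FDXR were not analysed here. Of the 39, BCL2 lay below the filter on dim genes, and 38 were tested among 12740 genes. The signals are log2 values of whole-transcript arrays from 2 cell lines, A549 and H441, both long established from human lung adenocarcinomas. The groups were A549 with siTAZ, A549 with siNTC, H441 with siTAZ and H441 with siNTC, where siTAZ is an siRNA named for the co-activator TAZ and siNTC its control. RNA was taken 48 h after lipid transfection, which all groups shared, and each group was 1 array without a replicate. Each line is 1 established culture, and silencing was transient.

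The transcription factor p53 is stabilised by DNA damage and other stresses and switches on genes that halt the cell cycle, repair DNA, dispose of reactive oxygen species or start apoptosis, and its target MDM2 marks it for degradation. In the mitochondrial pathway of apoptosis, BH3-only proteins neutralise the anti-apoptotic BCL2 proteins so that BAX and BAK1 open the outer membrane, cytochrome c is released, and APAF1 activates caspase 9. In the extrinsic pathway, ligands such as TRAIL bind death receptors that activate caspase 8.

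WWTR1, the gene of TAZ, was 7.64 with siTAZ and 10.04 with siNTC in A549, and 7.47 and 9.61 in H441, so the targeted transcript was lower with siTAZ in both lines. Of 5 markers of epithelial cells, KRT8 and KRT18 lay between 13.04 and 13.64 on all 4 arrays. The other 3 were far dimmer in A549: EPCAM was 6.74 with siTAZ and 6.65 with siNTC in A549 but 12.00 and 12.13 in H441, KRT19 8.66 and 8.95 against 12.85 and 12.99, and CDH1 8.96 and 8.68 against 12.20 and 12.27. Of 6 markers of alveolar type II cells and lung adenocarcinoma, NKX2-1, SFTPB, NAPSA and SLC34A2 averaged between 5.01 and 5.75 in A549, each below the table median of 6.13, and between 7.75 and 10.41 in H441. ABCA3 averaged 7.47 in A549 and 6.90 in H441, and SFTPC lay between 5.71 and 6.36 on the 4 arrays. Of 8 markers of leukocytes, endothelium and fibroblasts, PTPRC, CD3E, PECAM1, VWF and DCN were below the table median on all 4 arrays, CD68 and COL1A1 were above it on all 4, and COL3A1 lay between 6.06 and 6.31. The part of any of these markers in the results below was not tested.

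BCL2L1, which encodes the survival protein BCL-XL, fell over both lines after siTAZ and was the only one of the 38 tested genes to pass the test. The other 37, including the p53 targets CDKN1A, MDM2 and BAX, did not pass. The test was limma with cell line as a block, and the threshold an adjusted p (Benjamini-Hochberg) under 0.05; 2.47% of all genes tested were called, 1.29% as lower and 1.19% as higher. The count of 1 in 38 is 2.63%, close to that background, with 0 called higher. At an unadjusted limma p under 0.05 there were 4 of the 38 (BCL2L1, CFLAR, RRM2B and AEN), against 13.2% of all genes tested. The median difference over both lines was 0.02 for the 38 and 0.01 for all genes tested, on the log2 scale as siTAZ minus siNTC. The test rests on 2 lines with 1 residual degree of freedom and a prior from all genes, so every SE below is mostly that prior and does not measure the spread of a gene between repeats.

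Within A549, 36 of the genes reached the table median on at least one array, 18 higher with siTAZ and 17 lower, with differences from -0.88 to 0.38. Only BCL2L1 reached 1.5-fold there, against 2.83% of all genes at that level (1.76% higher and 1.07% lower). Within H441, 18 of 37 were higher and 19 lower, with differences from -0.41 to 0.54, and 0 reached 1.5-fold, against 1.45% of all genes (0.479% higher and 0.974% lower). The median size of the difference, sign ignored, was 0.11 in A549, against 0.13 for all genes, and 0.18 in H441, against 0.13 for all genes. These within-line differences are between single arrays and carry no test. The sign was the same in both lines for 19 of the 38 genes (50.0%), against 57.5% of all genes tested. Across the 38 genes the 2 lines' differences had a Pearson r of 0.328 (Spearman rho 0.106), and 0.154 (rho 0.031) without BCL2L1, while across all 12740 genes r was 0.322. The points are genes on the same 4 arrays and are not replicates. The plot of the 2 lines' differences shows BCL2L1 apart from the other members.

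**Figure D1:**
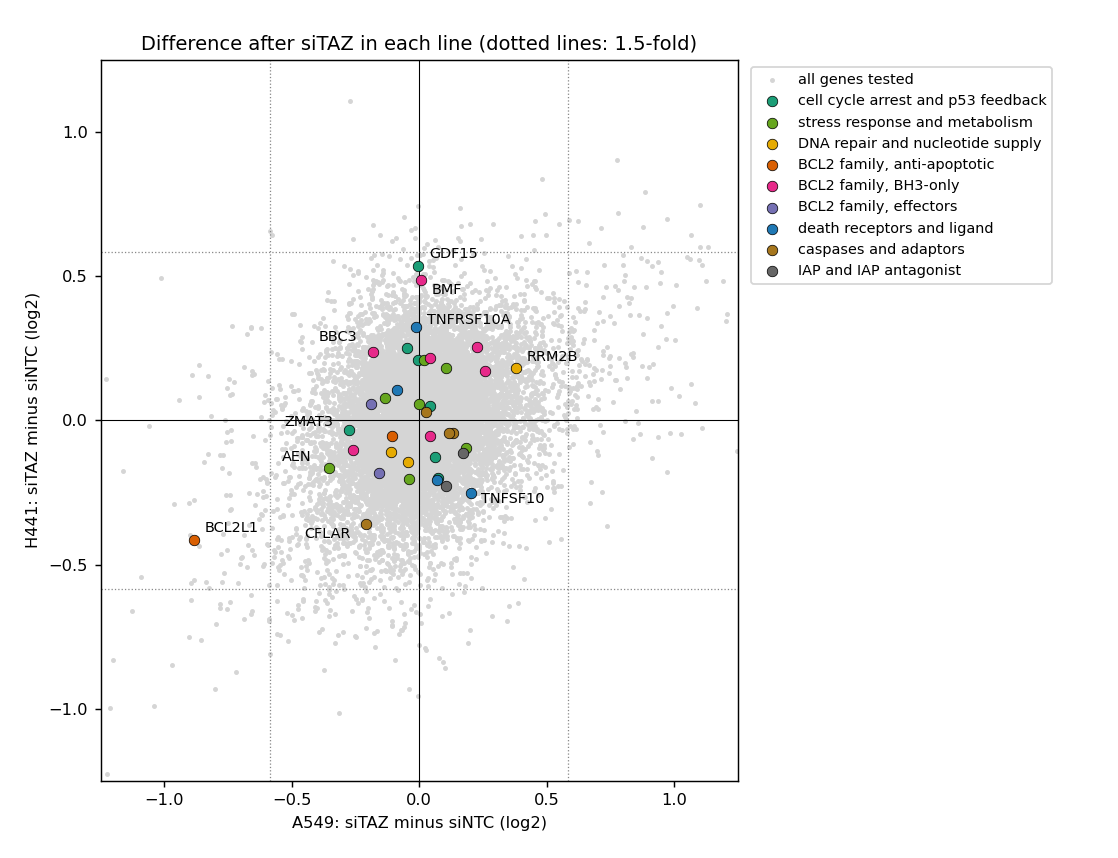
Log2 difference, siTAZ minus siNTC, in A549 (x axis) and H441 (y axis) for the 38 tested p53 target and apoptosis genes, coloured by role, over all 12740 genes tested in grey, 19 of which lie outside the axes; each point is the difference of 2 single arrays. BCL2L1 sits at -0.88 in A549 and -0.41 in H441, and GDF15 and BMF are the highest members in H441, at 0.54 and 0.49.

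BCL2L1 was 9.72 with siTAZ and 10.60 with siNTC in A549, and 10.83 with siTAZ and 11.24 with siNTC in H441. Both siTAZ arrays were below the siNTC array of their line, and the H441 arrays were above the A549 arrays. The signal with siTAZ was 1.85-fold lower in A549, the 22nd largest decrease of 11405 genes there, and 1.33-fold lower in H441. Over both lines BCL2L1 fell by 0.65 ± 0.13 on the log2 scale (limma SE, 2 lines, limma adjusted p = 0.00456). The call was lost after cyclic loess (-0.61, limma adjusted p = 0.133), without the filter on dim genes (-0.65, limma adjusted p = 0.0627), and without cell line in the fit (limma adjusted p = 1), and it was borderline after quantile normalization (-0.64, limma adjusted p = 0.0499). In RNA from whole cultures, fewer cells that express a gene and less RNA per cell cannot be told apart. The single probe set does not separate the BCL-XL isoform from the shorter pro-apoptotic one.

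RefSeq, on build GRCh38.p14, lists 2 transcription start sites for BCL2L1, and the 250 bases before each are shown because this was the only gene called. The first window is chr20:31723964-31724213, - strand, and the second is chr20:31722869-31723118, - strand. The window of GDF15 (chr19:18385908-18386157, + strand) is shown because it had the largest difference of the 38 in H441, and that of AEN (chr15:88621090-88621339, + strand) because it had the lowest difference in A549 among the p53 targets.
BCL2L1, first window: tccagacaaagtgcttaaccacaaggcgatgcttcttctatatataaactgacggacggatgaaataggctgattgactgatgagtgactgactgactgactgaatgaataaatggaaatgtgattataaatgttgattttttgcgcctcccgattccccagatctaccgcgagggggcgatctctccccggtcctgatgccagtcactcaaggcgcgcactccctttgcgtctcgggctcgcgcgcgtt
BCL2L1, second window: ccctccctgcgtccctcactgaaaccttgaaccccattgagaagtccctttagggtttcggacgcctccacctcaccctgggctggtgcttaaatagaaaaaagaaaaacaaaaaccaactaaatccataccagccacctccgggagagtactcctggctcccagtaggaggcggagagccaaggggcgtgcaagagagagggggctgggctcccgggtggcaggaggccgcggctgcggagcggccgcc
GDF15: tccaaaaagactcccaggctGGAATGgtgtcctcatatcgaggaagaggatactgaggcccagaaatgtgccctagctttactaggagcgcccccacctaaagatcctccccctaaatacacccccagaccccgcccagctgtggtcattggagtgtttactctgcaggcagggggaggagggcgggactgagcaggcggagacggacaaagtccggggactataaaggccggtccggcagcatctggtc
AEN: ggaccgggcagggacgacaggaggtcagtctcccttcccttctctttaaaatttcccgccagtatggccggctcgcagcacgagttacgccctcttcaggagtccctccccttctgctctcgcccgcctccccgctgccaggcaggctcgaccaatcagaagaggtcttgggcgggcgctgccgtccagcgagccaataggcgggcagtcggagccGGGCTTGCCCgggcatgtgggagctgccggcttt
Capitals mark matches to either of 2 motifs, searched on both strands: the TEAD motif GGAATG and the decamer half-site of the p53 response element. TEAD proteins are among the DNA-binding partners through which TAZ acts. Neither motif was found in the BCL2L1 windows, the GDF15 window held a TEAD motif, and the AEN window held a p53 half-site. Windows were found for 35 of the 41 genes, 64 in all. The TEAD motif was in 6 of these 64, those of PLK3, GDF15, SESN1, TP53I3, SPATA18 and CASP9, against 11.9% of all 35116 windows in the table. The p53 half-site was in 7 of the 64, those of SESN1, FDXR, AEN, BAK1, FAS, CASP8 and CASP9, against 5.57% of all windows, and the 2 motifs overlapped in 0 of the 64. A match of letters is a description of the window and says nothing of binding.

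Of the other anti-apoptotic genes, MCL1, a short-lived guardian of the mitochondrial membrane, was 10.35 with siTAZ and 10.46 with siNTC in A549, and 11.47 with siTAZ and 11.53 with siNTC in H441, and did not pass (limma adjusted p = 0.845). BCL2 itself lay below the table median on all 4 arrays, at 5.89 with siTAZ and 5.92 with siNTC in A549 and 5.72 and 5.58 in H441, and was not tested. MCL1 was therefore the only other anti-apoptotic BCL2 family gene of the group that was tested. Whether its response differs from that of BCL2L1 was not tested.

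The 7 BH3-only genes had a median difference of 0.13 over both lines, against 0.01 for all genes tested. Of the 7, 5 were above 0, against 6690 of all 12740 genes tested. By limma 0 of the 7 passed or reached an unadjusted p under 0.05, against 2.47% and 13.2% of all genes tested. PMAIP1, which encodes NOXA, an antagonist of MCL1, was 6.97 with siTAZ and 6.75 with siNTC in A549, and 9.76 with siTAZ and 9.51 with siNTC in H441 (0.24 ± 0.12 SE, 2 lines, limma adjusted p = 0.38). BID, which caspase 8 cleaves to link the extrinsic to the mitochondrial pathway, was 8.54 with siTAZ and 8.28 with siNTC in A549, and 7.93 with siTAZ and 7.76 with siNTC in H441 (0.21 ± 0.12 SE, limma adjusted p = 0.451). Both genes were higher with siTAZ in each line, by less than 1.5-fold. BMF, a BH3-only gene tied to loss of attachment, was 6.14 with siTAZ and 6.14 with siNTC in A549, and 7.84 with siTAZ and 7.35 with siNTC in H441. Its values with siTAZ and siNTC were within 0.01 of each other in A549 and lay 1.40-fold apart in H441 (limma adjusted p = 0.414 over both lines). Both BMF signals in A549 were barely above the table median of 6.13, the level of the filter on dim genes. BBC3, which encodes PUMA, a strong p53-induced killer protein, was 6.91 with siTAZ and 7.09 with siNTC in A549, and 7.31 with siTAZ and 7.08 with siNTC in H441. It was lower with siTAZ in A549 and higher in H441. BAD, which binds BCL-XL, differed by 0.04 in A549 and by 0.22 in H441, and BCL2L11, which encodes BIM, had 0.04 and -0.05. BIK had -0.26 and -0.10, with its A549 signals of 5.44 with siTAZ and 5.70 with siNTC below the table median.

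The 2 effectors that form the pore did not pass either. BAX, a p53 target, was 10.05 with siTAZ and 10.24 with siNTC in A549, and 9.29 with siTAZ and 9.23 with siNTC in H441 (-0.07 ± 0.12 SE, limma adjusted p = 0.887). BAK1 was 8.11 with siTAZ and 8.27 with siNTC in A549, and 8.93 with siTAZ and 9.11 with siNTC in H441 (-0.17 ± 0.12 SE, limma adjusted p = 0.589). BAK1 was lower with siTAZ in both lines by a like amount, 0.16 and 0.18, while BAX was lower in A549 alone.

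Among the death receptor genes, 0 of 4 passed limma, against 2.47% of all genes tested. The sign was alike in both lines for 0 of these 4, against 57.5% of all genes tested, and 4 genes are too few to set apart from that share. TNFSF10, which encodes the ligand TRAIL, was 5.50 with siTAZ and 5.30 with siNTC in A549, and 7.17 with siTAZ and 7.42 with siNTC in H441, below the table median on both A549 arrays. Its receptor gene TNFRSF10A was 8.91 with siTAZ and 8.92 with siNTC in A549, and 9.53 with siTAZ and 9.20 with siNTC in H441. The H441 difference of 0.32 was the largest of this role, and the A549 difference was -0.01. TNFRSF10B, the other TRAIL receptor gene of the group, is a p53 target. It was 10.41 with siTAZ and 10.50 with siNTC in A549, and 10.42 with siTAZ and 10.32 with siNTC in H441. Its differences were -0.09 and 0.11. FAS, the receptor of FAS ligand and also a p53 target, was 7.88 with siTAZ and 7.81 with siNTC in A549, and 8.61 with siTAZ and 8.82 with siNTC in H441. Its limma adjusted p was 0.881, and that of TNFRSF10A was 0.661.

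Of the caspases and their adaptors, CFLAR, which encodes FLIP, the inhibitor of caspase 8 at the receptor, came nearest to a call. It was 6.35 with siTAZ and 6.56 with siNTC in A549, and 8.57 with siTAZ and 8.92 with siNTC in H441 (-0.28 ± 0.12 SE, limma adjusted p = 0.261, unadjusted p = 0.0238). Both siTAZ arrays lay below their siNTC array, and a dimmer second probe set of CFLAR gave 0.0051 in A549 and -0.15 in H441. With the mean of both probe sets the difference was -0.18. CASP8, the initiator caspase of the extrinsic pathway, was 7.88 with siTAZ and 7.74 with siNTC in A549, and 8.24 with siTAZ and 8.28 with siNTC in H441. CASP9, the initiator of the mitochondrial pathway, differed by 0.03 in both lines, and APAF1, its activator, by 0.12 in A549 and -0.04 in H441. XIAP, an inhibitor of caspases, was 7.60 with siTAZ and 7.50 with siNTC in A549, and 8.44 with siTAZ and 8.67 with siNTC in H441. DIABLO, which encodes SMAC, the protein that displaces XIAP from caspases, was 8.02 with siTAZ and 7.85 with siNTC in A549, and 7.92 with siTAZ and 8.03 with siNTC in H441. XIAP and DIABLO were both higher with siTAZ in A549 and lower in H441, so the inhibitor and its antagonist had the same sign within each line. The plot of signals by array shows how close most pairs of arrays lay.

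**Figure D2:**
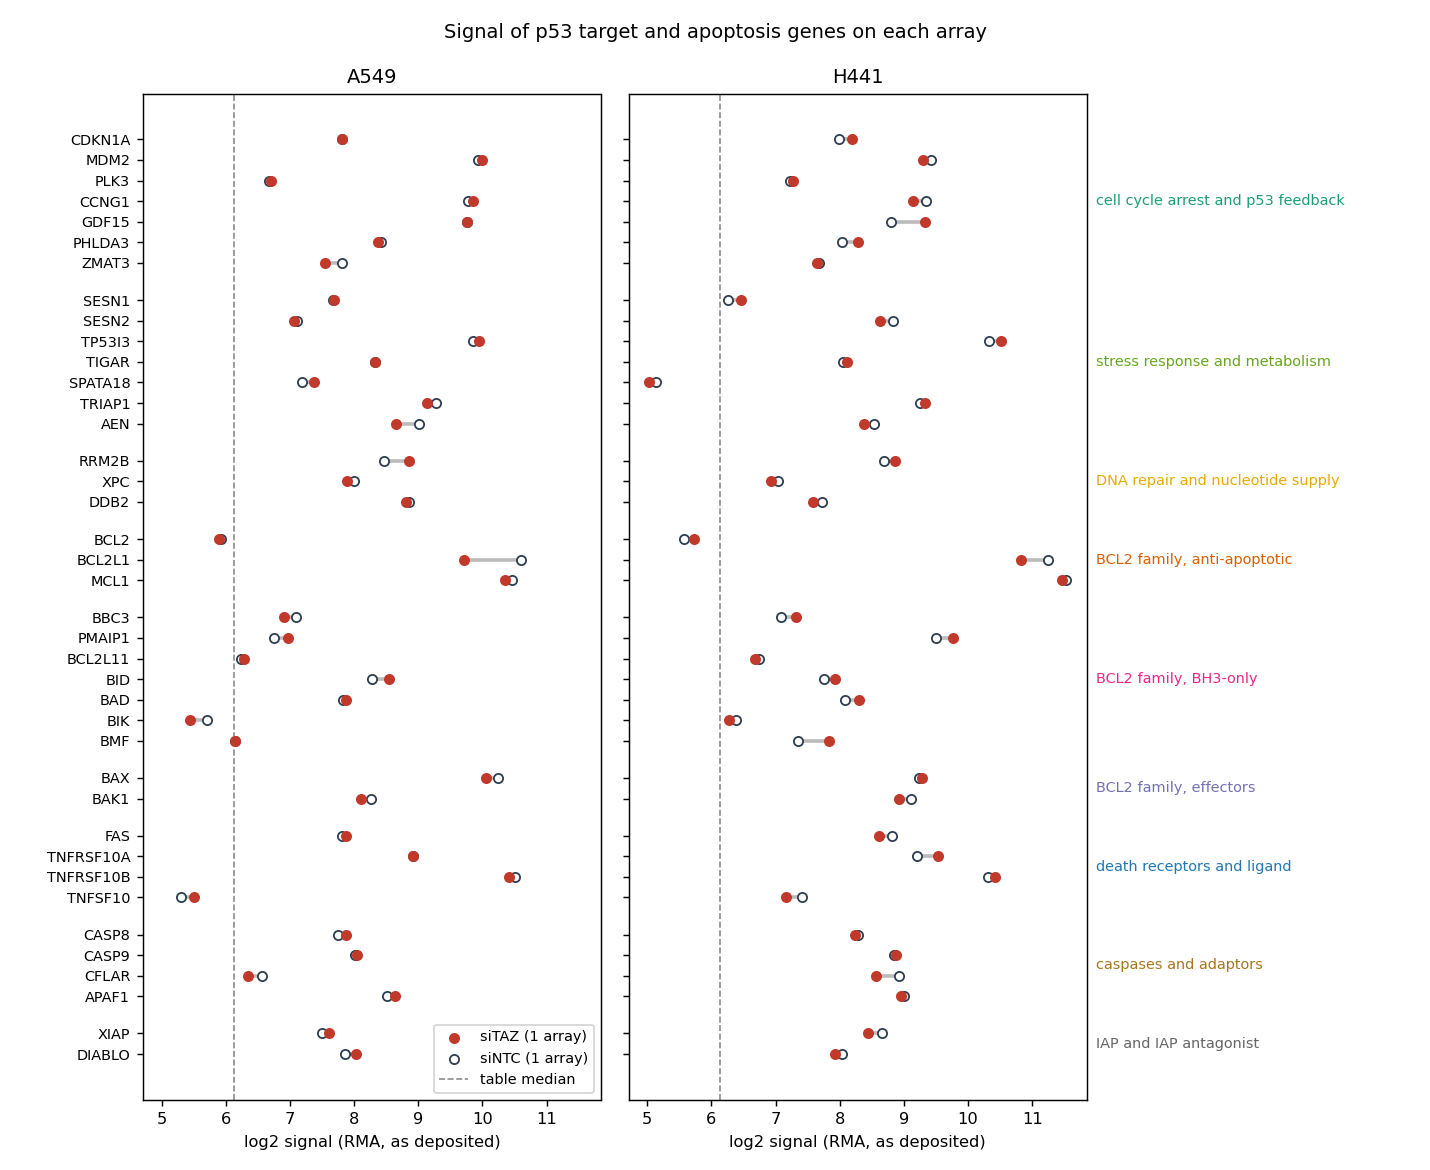
Log2 signal of the 39 genes with a probe set, grouped by role, in A549 (left panel) and H441 (right panel); filled points are siTAZ, open points siNTC, 1 array each, and the dashed line is the table median of 6.13. Most pairs lie close together, and the widest gap is that of BCL2L1 in A549, 9.72 with siTAZ and 10.60 with siNTC.

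Of the p53 targets with roles in arrest, stress and repair, 0 of 17 tested passed limma, against 2.47% of all genes tested. At an unadjusted limma p under 0.05 there were 2, AEN and RRM2B (11.8%, against 13.2% of all genes tested). CDKN1A, which encodes the cyclin-dependent kinase inhibitor p21 and is the classic p53 target, was 7.81 with siTAZ and 7.81 with siNTC in A549, and 8.19 with siTAZ and 7.98 with siNTC in H441 (0.10 ± 0.12 SE, 2 lines, limma adjusted p = 0.799). MDM2, the ubiquitin ligase of p53, was 10.00 with siTAZ and 9.94 with siNTC in A549, and 9.30 with siTAZ and 9.43 with siNTC in H441 (-0.03 ± 0.12 SE, limma adjusted p = 0.947). The CDKN1A arrays were within 0.01 of each other in A549 and differed by 0.21 in H441, and MDM2 had opposite signs in the 2 lines. GDF15, a secreted stress cytokine, was 9.76 with siTAZ and 9.77 with siNTC in A549, and 9.33 with siTAZ and 8.80 with siNTC in H441. It was level in A549 and 1.45-fold higher with siTAZ in H441, the 90th largest increase of 11911 genes there, and did not pass over both lines (0.27 ± 0.13 SE, limma adjusted p = 0.38). After cyclic loess its H441 difference passed 1.5-fold.

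The remaining genes of arrest and feedback differed by at most 0.27 in either line. CCNG1, which encodes cyclin G1, was 9.86 with siTAZ and 9.78 with siNTC in A549, and 9.14 with siTAZ and 9.34 with siNTC in H441. ZMAT3, an RNA-binding p53 target, was 7.54 with siTAZ and 7.81 with siNTC in A549, and 7.65 with siTAZ and 7.68 with siNTC in H441. PHLDA3, a repressor of AKT signalling, was 8.37 with siTAZ and 8.42 with siNTC in A549, and 8.28 with siTAZ and 8.03 with siNTC in H441. ZMAT3 was lower with siTAZ mainly in A549 and PHLDA3 higher mainly in H441. PLK3, a polo-like kinase gene, differed by 0.04 in A549 and by 0.05 in H441.

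AEN, an apoptosis-enhancing nuclease, was 8.66 with siTAZ and 9.01 with siNTC in A549, and 8.37 with siTAZ and 8.54 with siNTC in H441 (-0.26 ± 0.12 SE, limma adjusted p = 0.329, unadjusted p = 0.0379). It was lower with siTAZ in both lines. The sestrin genes SESN1 and SESN2, which restrain mTORC1 under stress, had differences of 0.02 and -0.04 in A549 and of 0.21 and -0.20 in H441. TP53I3, a quinone oxidoreductase gene, was 9.95 with siTAZ and 9.85 with siNTC in A549, and 10.52 with siTAZ and 10.33 with siNTC in H441, higher with siTAZ in each line by less than 1.5-fold. TIGAR, a fructose bisphosphatase that lowers glycolysis, was 8.32 on both A549 arrays and differed by 0.06 in H441. TRIAP1, a small inhibitor of apoptosis, gave -0.13 in A549 and 0.08 in H441. SPATA18, which acts in mitochondrial quality control, was 7.38 with siTAZ and 7.19 with siNTC in A549, and 5.03 with siTAZ and 5.13 with siNTC in H441, below the table median in H441.

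RRM2B, the p53-inducible subunit of ribonucleotide reductase, was 8.85 with siTAZ and 8.47 with siNTC in A549, and 8.87 with siTAZ and 8.68 with siNTC in H441 (0.28 ± 0.12 SE, limma adjusted p = 0.274, unadjusted p = 0.0262). It was higher with siTAZ in both lines. The nucleotide excision repair genes XPC and DDB2, which recognise DNA damage, had differences of -0.11 and -0.05 in A549 and of -0.11 and -0.14 in H441, lower in each line and far from the threshold (limma adjusted p = 0.776 for XPC and 0.82 for DDB2).

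Wider lists of the same pathways gave few calls. Of 18 regulators of p53, 16 were tested and 0 passed limma, with 2 at an unadjusted p under 0.05, MDM4 and HIPK2 (12.5%, against 13.2% of all genes tested). Their median over both lines was -0.06. In A549 9 of 15 were lower with siTAZ, against 48.4% of all genes, and in H441 13 of 16, against 48.8%. MDM4, the partner of MDM2 that masks the activation domain of p53, was 7.30 with siTAZ and 7.63 with siNTC in A549, and 6.96 with siTAZ and 7.25 with siNTC in H441 (-0.32 ± 0.12 SE, 2 lines, limma adjusted p = 0.188). Both siTAZ arrays were below their siNTC array. HIPK2, a kinase that phosphorylates p53, was 8.99 with siTAZ and 8.64 with siNTC in A549, and 10.18 with siTAZ and 9.93 with siNTC in H441 (0.30 ± 0.12 SE, limma adjusted p = 0.228), and is named after its values were seen. It was higher with siTAZ in both lines. Of 47 further p53 targets, 45 were tested, 1 passed as higher and 2 as lower (6.67%, against 2.47% of all genes tested), with 12 at an unadjusted p under 0.05 (26.7%, against 13.2%) and a median of -0.01. The list was chosen with earlier results of these data known, so these higher shares are not evidence about p53 targets.

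The 3 calls differed in direction and in how alike the lines were. PLK2, a polo-like kinase gene, was 9.72 with siTAZ and 10.76 with siNTC in A549, and 7.85 with siTAZ and 8.84 with siNTC in H441, and fell by 1.02 ± 0.12 (SE, 2 lines, limma adjusted p = 2.3e-05). KITLG, which encodes stem cell factor, was 7.42 with siTAZ and 8.01 with siNTC in A549, and 9.15 with siTAZ and 9.72 with siNTC in H441, and fell by 0.58 ± 0.12 (SE, limma adjusted p = 0.00563). For both genes the decrease was of like size in the 2 lines. TP53INP1, a p53-induced autophagy and apoptosis gene, was 7.71 with siTAZ and 6.26 with siNTC in A549, and 5.33 with siTAZ and 5.10 with siNTC in H441, and rose over both lines (0.84 ± 0.17 SE, limma adjusted p = 0.00681), with most of the difference in A549 and its H441 signal below the table median. The KITLG call was lost after cyclic loess (limma adjusted p = 0.0817), and that of TP53INP1 after quantile normalization (0.124), cyclic loess (0.266) and without the filter (0.16). Without cell line in the fit limma called none of the 3, and 0 genes of all. Of 30 further apoptosis genes, among them executioner caspases and other BCL2 relatives, 22 were tested and 0 passed limma, against 2.47% of all genes tested. An unadjusted limma p under 0.05 was reached by 1 of the 22 (4.55%, against 13.2% of all genes tested). Their median was 0.03, and the plot of the lists shows the 4 calls beyond the other genes of their lists.

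**Figure D3:**
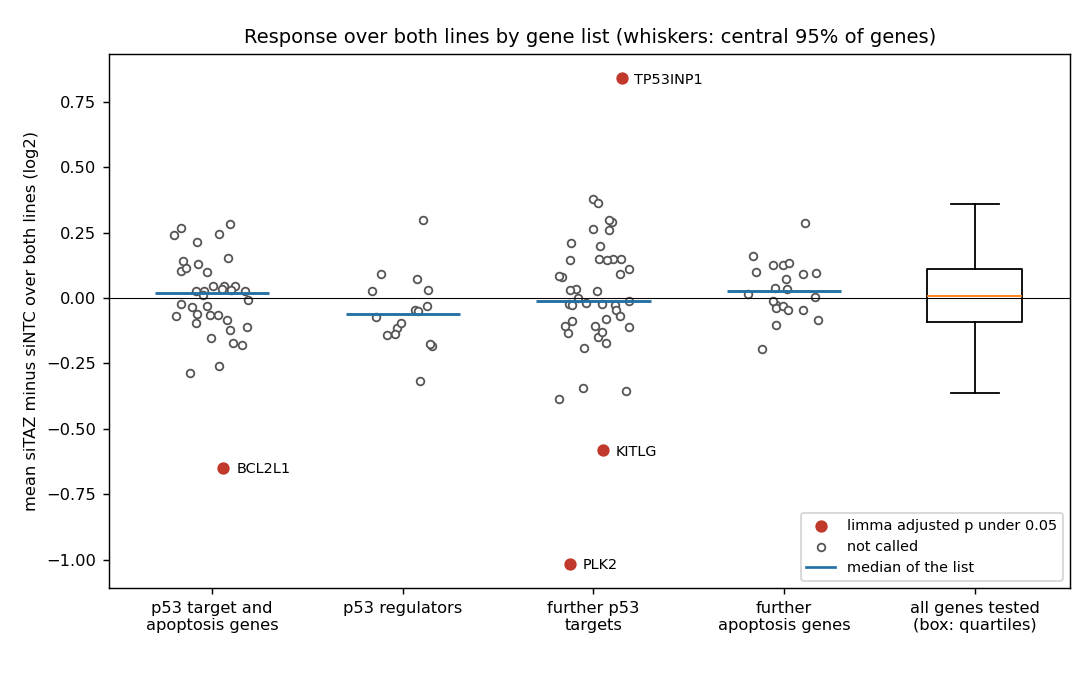
Mean log2 difference over both lines, siTAZ minus siNTC, for the tested genes of each list (points, red where limma adjusted p is under 0.05; blue line, median) and for all 12740 genes tested (box with quartiles, whiskers over the central 95%). BCL2L1 at -0.65, KITLG at -0.58, PLK2 at -1.02 and TP53INP1 at 0.84 are the only calls among the 121 genes drawn.

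The same genes differed more between the lines than with siTAZ: the median size of the difference, sign ignored, was 0.59 between the lines and 0.10 with siTAZ, against 0.51 and 0.10 for all genes tested. Taking A549 minus H441 over both siRNAs in the same limma fit, 30 of the 38 passed, 10 higher and 20 lower in A549, against 71.9% of all genes tested (19.0% higher and 52.8% lower). Here the 2 siRNAs stand in for replicates, and the SE is again mostly the prior from all genes. The p-values therefore do not measure the spread of a gene between repeats. The split depended on the scaling, since the median of all genes was -0.31 as deposited and -0.0003 after quantile normalization, where 16 members were higher and 13 lower. With each of the 4 scalings 10 genes were called higher in A549 and 13 lower, against 19.0% and 31.2% of all genes tested. Of these 23, SPATA18, BIK and TNFSF10 lay below the table median on both arrays of the dimmer line and passed the filter only through the brighter one, which fixed their direction. Among the 35 members that reached the table median in both lines, a count added after the values were seen, 9 were higher and 11 lower in every scaling, against 15.8% and 29.1% of the 10576 such genes.

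The genes higher in A549 in every scaling were MDM2, CCNG1, GDF15, SESN1, SPATA18, AEN, XPC and DDB2 among the p53 targets of arrest, stress and repair, and BAX and BID of the BCL2 family. SPATA18 averaged 7.28 in A549 and 5.08 in H441, a difference of 2.20 (2.20 to 2.41 over the scalings) against a line where it was below the table median. SESN1 averaged 7.67 in A549 and 6.36 in H441 (1.31 ± 0.12 limma SE, 2 arrays per line, 1.31 to 1.59 over the scalings). DDB2 averaged 8.84 in A549 and 7.66 in H441, and XPC 7.94 and 6.99. MDM2 averaged 9.97 in A549 and 9.36 in H441 (0.61 ± 0.12 SE, 0.61 to 1.01 over the scalings), and BAX 10.15 and 9.26 (0.89 ± 0.12 SE). CDKN1A, which is not among the 23, averaged 7.81 in A549 and 8.09 in H441, and its direction flipped with the scaling (-0.28 as deposited, 0.06 after quantile normalization).

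The genes lower in A549 in every scaling were PLK3 and SESN2 among the p53 targets of arrest and stress, and BCL2L1, MCL1, PMAIP1, BIK, BMF, BAK1, FAS, TNFSF10, CASP9, CFLAR and XIAP among the apoptosis genes. PMAIP1 averaged 6.86 in A549 and 9.64 in H441, the widest gap of the 38 (-2.78 ± 0.12 SE, limma adjusted p = 2.93e-16, -2.78 to -2.41 over the scalings). CFLAR averaged 6.45 in A549 and 8.75 in H441 (-2.29 ± 0.12 SE), and SESN2 7.08 and 8.73 (-1.65 ± 0.12 SE). TNFSF10 averaged 5.40 in A549, below the table median, and 7.29 in H441. BMF averaged 6.14 in A549 and 7.60 in H441, MCL1 10.41 and 11.50, and XIAP 7.55 and 8.55. Of the genes that oppose apoptosis, BCL2L1, MCL1, CFLAR and XIAP were lower in A549. Of those that promote it, PMAIP1, BMF, BAK1, FAS and CASP9 were lower in A549 as well, while BAX and BID were higher. BIK and TNFSF10 were also lower, but they passed the filter only through H441, which fixed their direction. Among the apoptosis genes that p53 is known to induce, BAX and AEN were higher in A549 in every scaling, while FAS and PMAIP1 were lower. The call of TNFRSF10B depended on the scaling, and BBC3 was not called in any scaling. These apoptosis targets of p53 therefore had no common direction between the lines. By role, as deposited, limma called 8 of the 17 p53 targets of arrest, stress and repair higher in A549 and 4 lower. Of 11 BCL2 family genes 2 were higher and 8 lower, and of 10 death receptor, caspase and inhibitor-of-apoptosis genes 0 and 8. Of all genes tested 19.0% were higher and 52.8% lower. The role counts include SPATA18, BIK and TNFSF10, whose direction the filter fixed. Whether the roles differ was not tested. The sestrin paralogs were on opposite sides, SESN1 higher and SESN2 lower in A549.

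**Figure D4:**
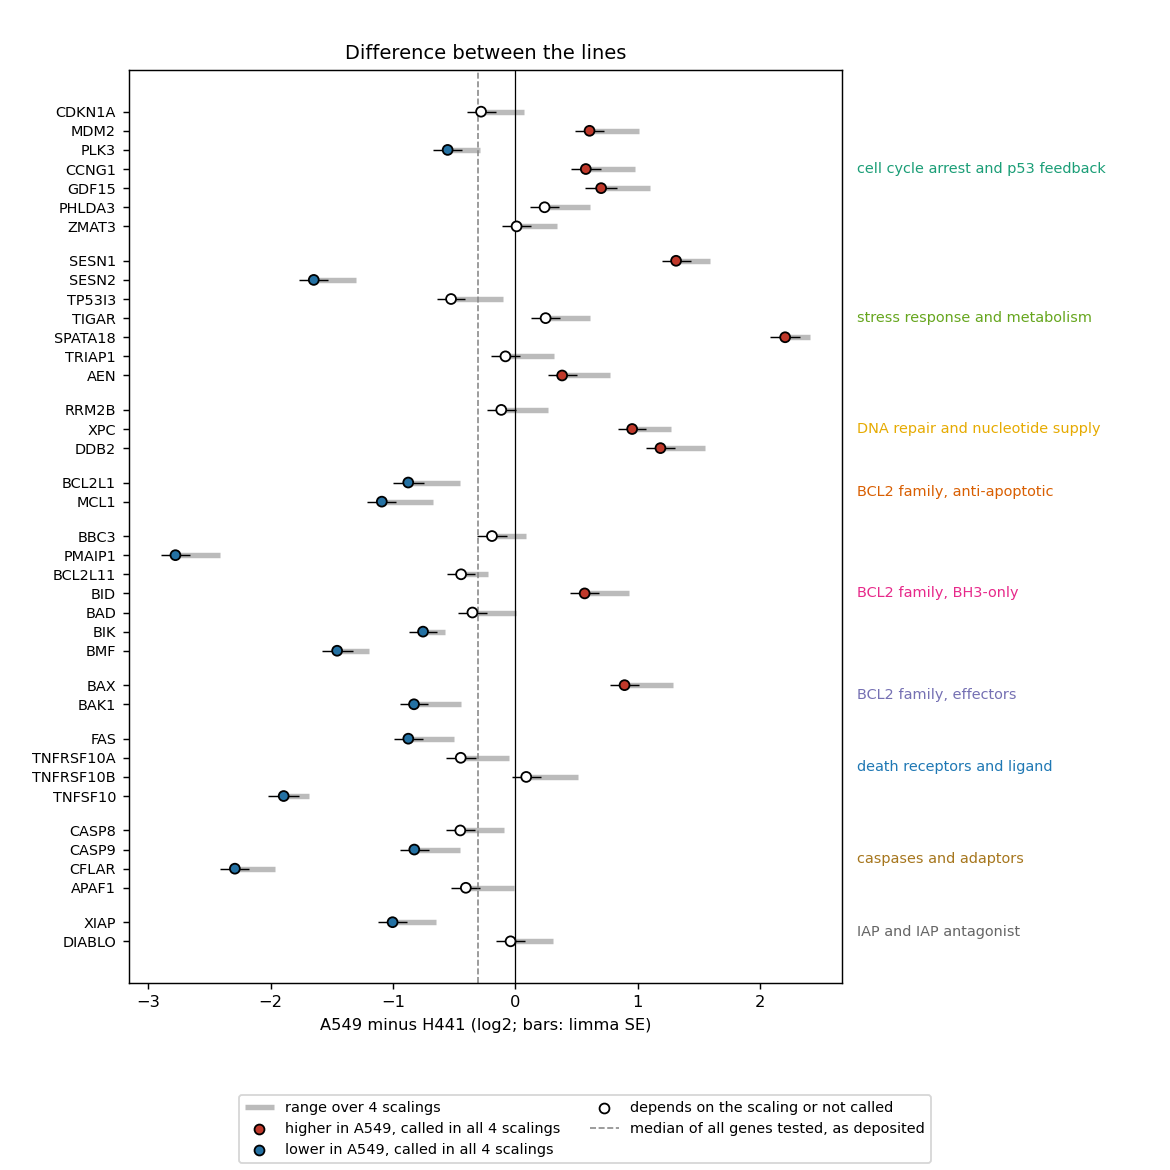
Log2 difference A549 minus H441 over both siRNAs for the 38 tested genes by role, with the limma SE as bars and the range over 4 scalings as grey bands; red and blue points are called higher or lower in A549 in every scaling, open points are not. PMAIP1 at -2.78 and SPATA18 at 2.20 mark the ends, SPATA18 being below the table median in H441 and BIK and TNFSF10 in A549, and the dashed line is the median of all genes as deposited, -0.31.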

How the data were processed

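The authors deposited log2 signals of 28869 probe sets on 4 Affymetrix whole-transcript arrays. Per the submitters' processing notes these are RMA values, while the log2 scale was inferred from their range, 4.20 to 14.83. The RMA version, and whether all arrays entered one normalization, is not given in the sources used here. RMA draws the differences of dim probe sets towards 0, which understates their folds. Precision is limited by having 1 array in each group.

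Of the probe sets, 19310 had 1 gene symbol in the platform's annotation. Symbols were updated through Entrez identifiers (19279 matched in the GRCh38.p14 gene table). For a gene with several probe sets, the brightest on average was taken. Genes whose highest value reached the table median (6.13) were fitted with limma 3.58.1 in R 4.3.3 (cell line and siRNA as terms, two-sided, Benjamini-Hochberg over 12740 genes), which was tested on simulated data. The prior was worth 22.3 degrees of freedom, beside 1 residual degree. The same fit gave A549 minus H441. Within a line, the difference of 2 arrays was counted at 1.5-fold where the higher array reached the table median.

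The genes and lists were chosen with earlier results of these data known, and lists are described by counts and medians only. All 41 genes are named. From the 3 wider lists, the rule named MDM4, 1 further regulator that is not reported here, and the genes that passed limma or reached 1.5-fold in a line. HIPK2 was added after its values were seen. Alternatives were 3 other scalings, 2 other filters, the mean of probe sets, a prior trend and a fit without cell line. Promoter sequences are from RefSeq.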

Additional observations from a re-analysis of the deposited data

Results flagged for a closer look

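BBC3, XIAP and DIABLO had differences of at least 0.1 on the log2 scale in opposite directions in the 2 lines, with the gene above the table median in both. For BBC3, siTAZ minus siNTC was -0.18 in A549 and 0.24 in H441. For XIAP it was 0.11 in A549 and -0.23 in H441, and for DIABLO 0.17 and -0.11. Each value is the difference of 2 single arrays, and the difference between the lines was not tested, since an interaction fitted to 4 single arrays has no error term.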

How the results depend on the processing

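Over both lines, the count of members called lower after siTAZ (1, BCL2L1) was 0 after cyclic loess, 0 without the filter and 0 without cell line in the fit, where limma called 0 genes of all, with 11 at an unadjusted p under 0.05. The other 5 alternatives called BCL2L1 too, and its limma adjusted p ran from 5.1e-08 with a prior trend to 1 without cell line. All genes called numbered 20 after cyclic loess, 92 without the filter, 146 after quantile normalization and 594 with a prior trend, against 315. Median centring, which moved the median H441 difference of all genes from 0.01 to -0.08, turned 9 small differences over both lines to the other sign: PLK3 (-0.0019), TIGAR (-0.019), SPATA18 (-0.0016), BBC3 (-0.019), TNFRSF10B (-0.037), CASP8 (-0.0020), CASP9 (-0.018), APAF1 (-0.011) and DIABLO (-0.018). In H441 after cyclic loess 1 member, GDF15, was at least 1.5-fold higher. Between the lines, 16 members were called higher in A549 and 13 lower after quantile normalization, and 16 and 13 after cyclic loess, against 10 and 20. The A549 minus H441 difference changed sign for TRIAP1 (0.070 after median centring, 0.31 after quantile normalization, 0.31 after cyclic loess), RRM2B (0.036, 0.27 and 0.27) and DIABLO (0.11, 0.30 and 0.31). It changed sign after quantile normalization and cyclic loess for CDKN1A (0.061 and 0.067) and BBC3 (0.062 and 0.089), and for BAD after cyclic loess (0.0013). The siRNA comparison was paired by cell line, and the fit without cell line is its unpaired form. With 1 array per group, no replicate could be left out.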
